A study of Mus musculus with 30 samples.

Results

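Ackr1, Selp, Sele, Vcam1, Icam1, Lrg1 and Ch25h are 7 genes that endothelial cells of small veins use to catch leukocytes and to respond to inflammation, and they were chosen by name for their levels across 5 ages. They are 7 of the 48795 genes counted in each library. All 7 passed the filter on low counts that left 16844 genes, although Selp and Sele were near the detection limit in many libraries. The libraries held RNA from primary endothelial cells of the brains of wild-type (WT), untreated mice aged 2, 6, 12, 18 and 24 months, with 3 female and 3 male libraries at each age, 30 in all. The study regressed expression on age after correction for sex. The method of isolation, and whether a library stands for 1 mouse or for several, are not given in the sources used. Paired-end reads were made for 24 of the 30 libraries and single-end reads, on another instrument, for 6. The labels do not say which 6, so a difference that follows the instrument cannot be told apart from one that follows the groups. All groups shared the WT genotype and the absence of treatment, and age and sex were the only named factors that differed. The library titles also carry codes that mostly follow the groups. What the codes stand for is not given, so it cannot be told apart from age and sex.

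Leukocytes leave the blood mainly through postcapillary venules. E-selectin (Sele) and P-selectin (Selp) let them roll along the vessel wall, and Icam1 and Vcam1, which bind leukocyte integrins, then arrest them. Ackr1, the Duffy antigen receptor, binds many inflammatory chemokines without signalling through G proteins and carries them across the venular wall. Lrg1, a secreted leucine-rich glycoprotein, modifies endothelial TGF-beta signalling, and Ch25h makes 25-hydroxycholesterol, an oxysterol that restrains cholesterol synthesis. Tumour necrosis factor and interleukin-1 are known to raise Sele, Icam1 and Vcam1 in cultured endothelium through NF-kB. In the healthy brain these genes are mostly low, and the libraries, being bulk, mix capillary, arterial and venular cells. In such libraries fewer cells of a type and less RNA per cell cannot be told apart.

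The selectin genes lie next to each other on chromosome 1 (GRCm38), Sele at 164048234 to 164057677 and Selp at 164115264 to 164150026, both on the plus strand. Icam1 lies on chromosome 9 at 21015985 to 21028817 on the plus strand. Their upstream sequences are shown because these 3 adhesion genes differ widely in level and because NF-kB is the factor best known to act on Sele and Icam1. The 250 bases before the RefSeq start (GRCm38.p6) read 5′ to 3′ on the plus strand, with capitals for the match to a simplified NF-kB motif, 3 G, any 5 bases and 2 C, searched on both strands:
Sele, chr1:164047984-164048233: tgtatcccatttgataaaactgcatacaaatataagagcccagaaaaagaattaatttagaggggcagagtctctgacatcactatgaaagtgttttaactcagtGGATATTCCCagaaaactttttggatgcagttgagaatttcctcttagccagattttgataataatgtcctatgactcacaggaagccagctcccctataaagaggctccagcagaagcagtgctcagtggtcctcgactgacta
Selp, chr1:164115014-164115263: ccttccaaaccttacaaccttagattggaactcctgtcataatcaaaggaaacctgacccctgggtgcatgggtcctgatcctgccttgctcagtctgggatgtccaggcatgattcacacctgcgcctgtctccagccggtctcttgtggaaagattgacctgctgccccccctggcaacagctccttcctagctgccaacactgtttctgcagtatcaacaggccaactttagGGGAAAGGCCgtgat
Icam1, chr9:21015690-21015939: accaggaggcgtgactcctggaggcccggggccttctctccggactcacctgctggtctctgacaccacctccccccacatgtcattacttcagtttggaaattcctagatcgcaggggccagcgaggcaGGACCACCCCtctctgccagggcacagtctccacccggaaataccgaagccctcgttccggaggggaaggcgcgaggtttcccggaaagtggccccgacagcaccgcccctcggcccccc
The match in Sele is GGATATTCCC, from base -145 to base -136 counted back from the start. In Icam1 it is GGACCACCCC, from -120 to -111, and in Selp GGGAAAGGCC, from -15 to -6. A promoter was found for 6 of the 7 genes (all but Vcam1), and 5 of these 6, Ackr1 being the exception, held the NF-kB letters. Of all 32851 mouse promoters in that table, 45.8% held them, so the letters are common. The STAT letters TTCNNNGAA were in 2 of the 6 (Sele, where they overlap the NF-kB match, and Icam1) and in 7.02% of all promoters. The AP-1 letters TGANTCA were in 2 of the 6 (Selp and Sele) and in 6.75% of all. These matches describe letters in a window, and no site of binding was measured. Other forms of the motifs were not searched, so a promoter, with or without a match, may hold sites that are not marked here.

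Counts in genes ranged from 24140980 to 50464366 per library. At that depth a count of 3 reads, taken as the floor, corresponds to between 0.0594 and 0.124 CPM. Depth differed with age: it ran from 24588877 to 33187952 counts at 2 months and from 35868349 to 50464366 at 24 months. Libraries without a read of a gene were therefore not read at equal depth across ages. Levels are given as CPM, reads of a gene scaled to a common library total, with TMM, edgeR's correction for composition. The endothelial label was borne out by its markers in every library, with Pecam1 between 758 and 1300 CPM and the tight junction gene Cldn5 between 2568 and 5785 CPM. RNA of other brain cells was also present: the summed level of 7 choroid plexus markers ran from 160 to 6985 CPM, and that of 8 neuronal markers from 2.09 to 9.96 CPM. Divided by exon length, Icam1 had the highest mean level of the 7 genes, 26.2 CPM per kilobase, followed by Lrg1 (19.6), Vcam1 (14.6), Ackr1 (12.4), Ch25h (5.73), Sele (0.814) and Selp (0.362). By the median over libraries the order of Vcam1 (13.3) and Lrg1 (10.5) was turned round, since a few libraries held much of the Lrg1.

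Sele, the selectin that endothelium makes mainly when stimulated, was almost absent at 2 months and was read in every library from 18 months on. Its lowest, median and highest levels were 0, 0.03 and 0.68 CPM at 2 months, 0, 0.22 and 1.69 CPM at 6 months and 0, 0.40 and 4.50 CPM at 12 months. At 18 months they were 0.59, 1.36 and 42.1 CPM, and at 24 months 0.58, 1.12 and 5.64 CPM. It had no read in 7 libraries, all of 12 months or younger, and at most 3 reads in 10. Of the 24-month libraries 5 of 6 exceeded the highest 2-month library. The highest value of all, 42.1 CPM from 1547 reads, was in 18 months male replicate 2, and this library alone held 59.2% of the Sele summed over the 30.

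Selp, the selectin stored in Weibel-Palade bodies and released to the surface within minutes, stayed below 4 CPM in all libraries but 1. It had a lowest, median and highest level of 0, 0.54 and 0.71 CPM at 2 months, 0, 0.14 and 1.38 CPM at 6 months and 0, 0.94 and 3.00 CPM at 12 months. The corresponding levels were 0, 1.18 and 18.7 CPM at 18 months and 0.90, 1.68 and 3.72 CPM at 24 months. All 6 libraries of 24 months thus lay above all 6 of 2 months, although 1 library of 18 months had no read at all. The 18.7 CPM came from 686 reads in 18 months male replicate 2, which held 38.9% of the summed Selp. Antisense genes share 624 exon bases with Selp, and its count was 79.2% of the sum of the columns that separate strands, so part of its reads cannot be assigned to it with certainty. Platelets also carry Selp: the summed level of 8 platelet markers was 24.8 CPM in that library, at rank 8 of 30. Of the 8 markers 1 had no read there, Gp1ba, which had none in 5 of the 30 libraries. The part of platelets in the result was not tested.

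Vcam1 and Icam1, the integrin ligands, were well expressed at every age and varied least. The lowest, median and highest Vcam1 levels were 74.8, 123 and 136 CPM at 2 months, 84.7, 98.8 and 123 CPM at 6 months and 70.9, 111 and 135 CPM at 12 months. They were 72.3, 130 and 370 CPM at 18 months and 101, 150 and 290 CPM at 24 months. The ages overlapped at the low end, and the upper end moved: 4 of the 6 libraries of 24 months exceeded every 2-month library. Vcam1 is on the minus strand of chromosome 3, from 116109949 to 116129688.

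For Icam1 the corresponding levels were 79.1, 104 and 111 CPM at 2 months, 66.9, 103 and 140 CPM at 6 months and 63.1, 89.7 and 109 CPM at 12 months. At 18 months they were 93.7, 110 and 223 CPM, and at 24 months 112, 150 and 185 CPM. All 6 libraries of 24 months lay above all 6 of 2 months, by a margin of less than 1 CPM between the lowest and the highest of them. Icam1 and Selp were the 2 of the 7 genes with such a separation, which 3.74% of all genes had in that direction. Since the genes were chosen on these levels, nothing is read from that share. 18 months male replicate 2 held 6.52% of the summed Icam1 and 9.54% of the summed Vcam1, much less than of the selectins.

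Ackr1 lies on the minus strand of chromosome 1, from 173331886 to 173333750, and was low at the 3 younger ages except in 1 library. Its lowest, median and highest levels were 0.88, 2.08 and 18.5 CPM at 2 months, 1.95, 3.51 and 7.56 CPM at 6 months and 1.37, 4.26 and 6.58 CPM at 12 months. They were 7.48, 9.27 and 261 CPM at 18 months, and 3.59, 7.70 and 77.2 CPM in the oldest mice. The median at 18 and 24 months was therefore well above that at 2 months, but a 2-month library, male replicate 3, overlapped with both older ages at 18.5 CPM. The 261 CPM of 18 months male replicate 2 was 3.38 times the next value and 50.0% of the sum over 30 libraries. Red cells are the other well known carriers of this receptor. Erythroid markers summed to 413 CPM in that library, at rank 27 of 30, and to 1434 CPM (rank 4) and 1090 CPM (rank 8) in the libraries next highest in Ackr1, 24 months male replicate 2 and 18 months male replicate 1. The highest sum was 2732 CPM, and the part of red cells in the Ackr1 level was not tested. Of the 1405 exon bases of Ackr1, 361 are shared with Cadm3 on the same strand, where reads cannot be assigned with certainty.

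Lrg1, on the minus strand of chromosome 17 from 56119678 to 56122001, followed Ackr1 closely. The lowest, median and highest Lrg1 levels were 3.87, 7.61 and 48.8 CPM at 2 months, 5.24, 10.3 and 17.5 CPM at 6 months and 5.33, 9.85 and 14.9 CPM at 12 months. They were 14.8, 27.7 and 225 CPM at 18 months and 15.6, 18.1 and 145 CPM at 24 months. The same 2-month library that was high in Ackr1 was high in Lrg1, so that only 1 library of 24 months exceeded all of 2 months, while 5 of the 6 youngest libraries lay below every library of 18 and 24 months. 18 months male replicate 2 held 27.1% of the summed Lrg1.

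Ch25h, a gene of 1 exon on the minus strand of chromosome 19 (34473778 to 34475164), had a lowest, median and highest level of 0.67, 1.92 and 5.58 CPM at 2 months, 1.56, 3.19 and 5.93 CPM at 6 months and 0.9995, 2.60 and 6.95 CPM at 12 months. The corresponding levels were 3.47, 5.08 and 50.9 CPM at 18 months and 4.04, 7.18 and 56.2 CPM at 24 months. All libraries of the oldest 2 ages exceeded the 2-month median, and of the 2-month libraries only the highest overlapped with them. An antisense gene shares 159 exon bases with it, and its count was 83.0% of the sum of the columns that separate strands. It was the 1 gene of the 7 whose highest value was not in 18 months male replicate 2 but in 24 months male replicate 2.

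**Figure D1:**
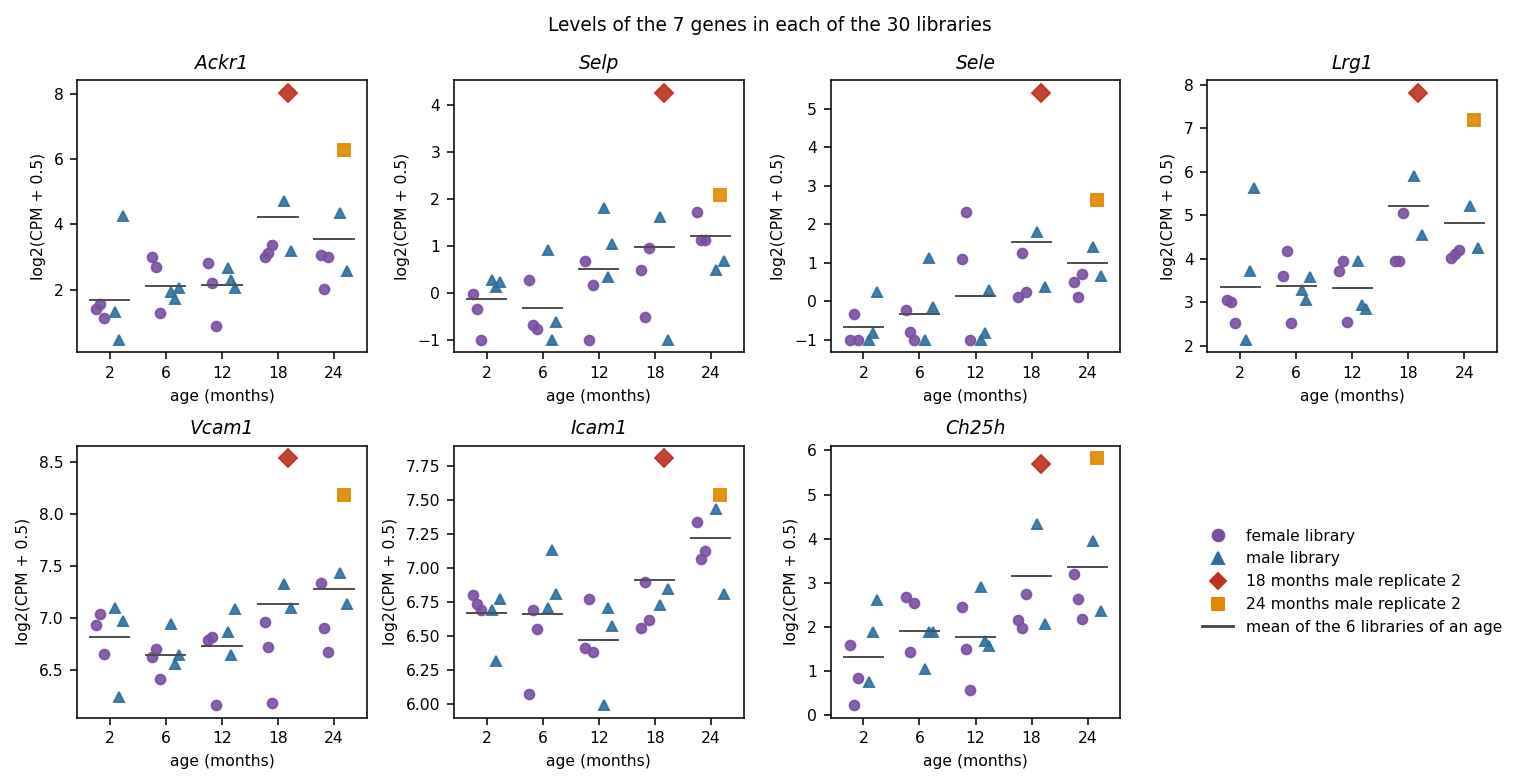
Level of each of the 7 genes in every library as log2(CPM + 0.5), vertical, against age in months, horizontal. Circles are female and triangles male libraries, the diamond is 18 months male replicate 2, the square is 24 months male replicate 2, and bars are means of the 6 libraries of an age; the diamond and the square lie above all other libraries for each gene.

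A straight line on age in months, with sex as a covariate, described the same levels as changes over the 22 months from 2 to 24. All 7 changes were positive, as were 52.6% of those of all genes. The fitted change was largest for Sele, 4.82 ± 1.54 log2 (SE), followed by Selp (3.16 ± 0.92), Ackr1 (2.92 ± 0.85), Ch25h (2.59 ± 0.57) and Lrg1 (2.08 ± 0.57). It was smallest for the well expressed integrin ligands, 0.62 ± 0.21 log2 for Vcam1 and 0.57 ± 0.16 log2 for Icam1. In the fit over all genes, 6 of the 7 had an adjusted p under 0.05, all but Vcam1, as had 5.72% of all genes in the same direction (edgeR's quasi-likelihood test, Benjamini-Hochberg adjustment). The genes were chosen on these levels, so that count is a description and no test. The share of reads outside genes also moved with age: it lay between 3.82 and 6.61% at 2 months, between 7.99 and 13.1% at 18 months and between 4.62 and 9.09% at 24 months. With that share as a covariate the changes stayed between 0.68 log2 for Icam1 and 4.44 log2 for Sele, but 2 of the 7, Icam1 and Ch25h, were then under the threshold, as were 1.57% of all genes. In the fit without that covariate, markers of several cell types also moved with age. Of capillary markers 2 of 8 fell (Car4 and Mfsd2a), of choroid plexus markers 4 of 7 and of astrocyte markers 2 of 8, and none rose. Of pericyte markers 3 of 8 rose, of arterial markers 2 of 9, and none fell. Of 10 endothelial markers 1 rose and 1 fell (Cldn5). Of all genes 5.72% rose and 5.22% fell. The part of these shifts in the changes of the 7 genes was not tested.

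Without 18 months male replicate 2 all 7 changes kept their sign and became smaller. Sele fell most, to 3.21 ± 1.15 log2 without that library, against 4.82 log2 with it, a move of 1.5 times. Ackr1 had a change of 2.15 ± 0.53 log2 and Lrg1 1.73 ± 0.45 log2 without it, so both kept most of their change and both remained under the threshold. Selp (2.40 ± 0.82 log2) and Sele lost the threshold without it and Vcam1 (0.51 ± 0.17 log2) gained it, 5 of 7 in all, against 4.97% of all genes. Leaving out 24 months male replicate 2 as well gave 1.47 ± 0.51 log2 for Ackr1, 1.17 ± 0.44 for Lrg1, 1.71 ± 0.45 for Ch25h, 2.81 ± 1.27 for Sele and 2.30 ± 0.90 for Selp. Vcam1 then had a change of 0.33 ± 0.15 log2 and Icam1 of 0.42 ± 0.14 log2. In that fit Ch25h alone was under the threshold, against 5.44% of all genes. The Ackr1 call was lost in 1 of the 30 fits that left out a library, the one without 2 months male replicate 2, that of Selp in the one without 18 months male replicate 2, and that of Sele in 10.

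Among the 15 female libraries, which hold neither of those libraries, the change over 22 months was 1.42 ± 0.55 log2 for Ackr1, 1.34 ± 0.41 for Lrg1, 1.35 ± 0.57 for Ch25h and 2.97 ± 1.02 for Selp. It was 3.17 ± 2.04 log2 for Sele, 0.47 ± 0.18 for Icam1 and 0.15 ± 0.20 for Vcam1. Among the 15 male libraries it was 4.28 ± 1.45 log2 for Ackr1, 2.68 ± 0.99 for Lrg1, 3.67 ± 0.81 for Ch25h and 3.36 ± 1.52 for Selp. It was 5.96 ± 1.99 log2 for Sele, 0.67 ± 0.25 for Icam1 and 1.12 ± 0.31 for Vcam1. Without 18 months male replicate 2 the male changes were 2.65 ± 0.79 log2 for Ackr1, 1.99 ± 0.71 for Lrg1, 3.17 ± 0.66 for Ch25h, 1.70 ± 1.20 for Selp and 3.23 ± 1.29 for Sele. No gene of the 7 was under the threshold among females and 1, Ch25h, among males, where 2.12% and 0.754% of all genes were.

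**Figure D2:**
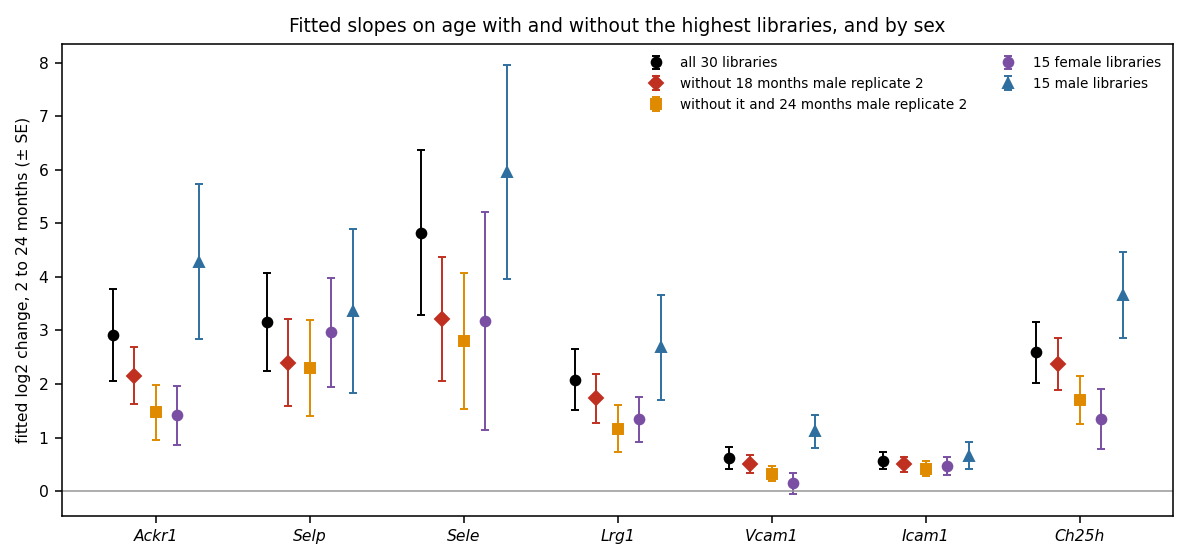
Fitted log2 change from 2 to 24 months, vertical, for each of the 7 genes, horizontal, with bars of 1 SE. Black circles use all 30 libraries, diamonds leave out 18 months male replicate 2, squares also leave out 24 months male replicate 2, purple circles use the 15 female and triangles the 15 male libraries; all points are above 0, and the squares and purple circles lie lower than the black circles.

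18 months male replicate 2 had the highest level of the 30 libraries for 6 of the 7 genes and the second highest for Ch25h. Of all genes tested, 2.18% had their highest level in it, a share that put the library at rank 19 of 30. Genes with a mean of at least 1 CPM were then ranked by how far their level in it exceeded the highest of the other 29. Of 13088 genes Sele stood at rank 1, Selp at rank 2 and Ackr1 at rank 4. Lrg1 stood at rank 17, Vcam1 at 36, Icam1 at 52 and Ch25h, which did not exceed the other 29, at 793. The 9 other genes of the leading 12 were Lcn2, Ltf, Cd14, Dusp2, Atp8b1, Steap4, Bcl3, Ier3 and Cxcl1. Lcn2, an iron-binding acute phase protein, had 209 CPM in it and at most 59.4 CPM in the other 29. Bcl3, a nuclear partner of NF-kB subunits, had 142 CPM and at most 71.5 CPM. Cd14, the lipopolysaccharide co-receptor, had 73.3 CPM and at most 28.6 CPM, and Cxcl1, a neutrophil chemokine, 18.2 CPM and at most 9.44 CPM. For 9 of the 12 genes the next highest library was 24 months male replicate 2.

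Markers of neutrophils moved with this library. Of the 11 markers, 9 were highest in it, and their summed level was 58.5 CPM there and 0 to 11.7 CPM in the other 29. By age the sum lay between 1.08 and 4.10 CPM at 2 months, between 0.49 and 4.58 CPM at 6 months and between 0 and 1.74 CPM at 12 months. It lay between 0.15 and 58.5 CPM at 18 months and between 1.47 and 6.99 CPM at 24 months. S100a9 had 13.4 CPM in the library and at most 3.94 CPM elsewhere, S100a8 11.8 CPM and at most 2.66 CPM, and Ngp 13.6 CPM and at most 3.31 CPM. Elane and Mpo, granule genes of neutrophil precursors, had no read in it, but each had none in 29 of the 30 libraries. Neutrophils also make Lrg1, and their part in the levels of the 7 genes was not tested. Other cell types did not peak there: pericyte markers summed to 668 CPM (rank 11 of 30), smooth muscle markers to 218 CPM (rank 5), microglia markers to 277 CPM (rank 15) and border macrophage markers to 9.68 CPM (rank 6). Endothelial markers summed to 21487 CPM, at rank 9. By vessel segment, markers of capillary endothelium summed to 9198 CPM (rank 22) and those of arterial endothelium to 812 CPM (rank 3). Single markers differed from these sums. Endothelial Cldn5 (2568 CPM), capillary Car4 (1264 CPM) and arterial Hey1 (115 CPM) had their lowest level of the 30 libraries in it. Arterial Sema3g (50.0 CPM) had its highest.

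24 months male replicate 2 was second for 6 of the 7 genes and first for Ch25h, while 3.23% of all genes had their highest level in it. Its neutrophil sum was 3.17 CPM, at rank 10. It had the highest pericyte sum of all libraries, 1203 CPM, where the 6 libraries of 24 months began at 466 CPM and those of 2 months ran from 435 to 733 CPM. Its smooth muscle sum was also the highest, 405 CPM, with the 24-month libraries beginning at 82.5 CPM and those of 2 months reaching 356 CPM. Its platelet sum, 39.3 CPM, and its sum of T and NK cell markers, 4.41 CPM, were the highest by little. Platelet markers reached 37.7 CPM at 12 months, and T and NK cell markers 4.40 CPM at 6 months. Oligodendrocyte markers summed to 680 CPM (rank 3) and erythroid markers to 1434 CPM (rank 4). The part of these cells in its levels was not tested. The libraries next in line, 18 and 24 months male replicate 1, were each among the 4 highest for 4 of the 7 genes, with pericyte sums of 472 and 466 CPM and neutrophil sums of 7.97 and 6.99 CPM.

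**Figure D3:**
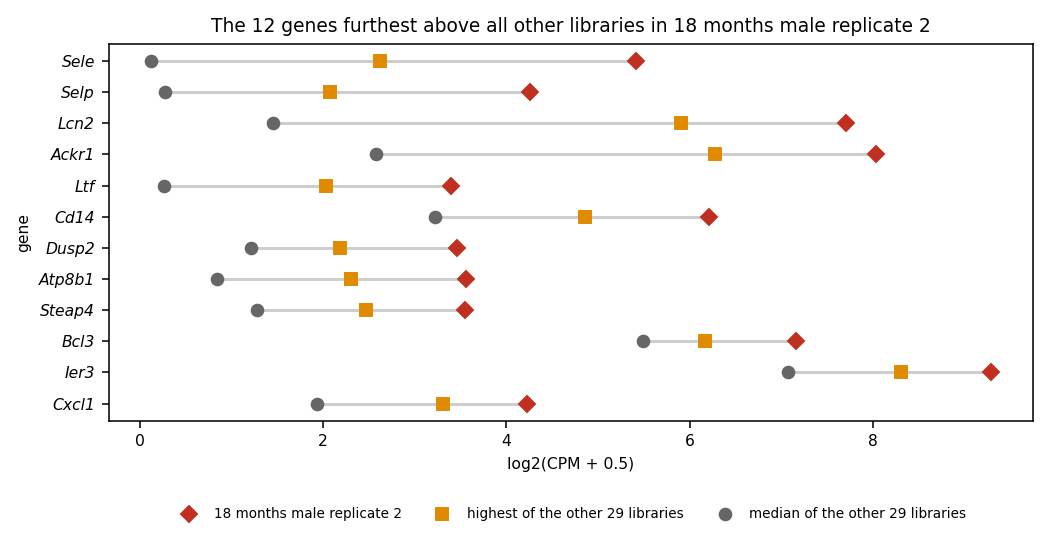
The 12 genes, down the page, that exceeded all other libraries by most in 18 months male replicate 2, with log2(CPM + 0.5) horizontal. Diamonds are that library, squares the highest and circles the median of the other 29; Sele and Selp show the widest gaps between diamond and square.

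Sex itself was not used in the choice of the genes, but the choice named 18 months male replicate 2, so the difference between the sexes is given over all libraries as a description and tested without that library. Over all 30 libraries the fitted values of all 7 genes were lower in females than in males, as were 54.5% of those of all genes. Ackr1 averaged 5.23 ± 2.87 CPM in female and 29.6 ± 66.9 CPM in male libraries (SD, n = 15 each). The medians ran the other way for Ackr1, 5.95 CPM in females and 5.49 CPM in males, and for Ch25h, 3.99 CPM in females and 3.67 CPM in males. The fitted difference, female over male with age as a factor, was -1.50 ± 0.54 log2 (SE) for Ackr1, -1.13 ± 0.40 for Lrg1, -1.12 ± 0.42 for Ch25h, -0.43 ± 0.15 for Vcam1 and -0.17 ± 0.11 for Icam1. The selectins had -1.32 ± 0.66 log2 (Selp) and -1.51 ± 0.92 log2 (Sele). No member was past the adjusted threshold with edgeR or DESeq2, where 0.101% of all genes were past it with edgeR. Unadjusted, 4 of the 7 had a p under 0.05 with edgeR and 5 with DESeq2, while 5.21% of all genes were lower in females with such a p in edgeR.

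Without 18 months male replicate 2 the differences were smaller and none passed. Ackr1 had -0.96 ± 0.43 log2 (edgeR adjusted p = 0.668), Lrg1 -0.84 ± 0.35 (0.655), Ch25h -0.87 ± 0.38 (0.661) and Vcam1 -0.30 ± 0.12 (0.615). Selp had -0.83 ± 0.62 log2 (0.852), Sele -0.81 ± 0.86 (0.933) and Icam1 -0.08 ± 0.09 (0.935). Without 24 months male replicate 2 as well, Ackr1 had -0.64 ± 0.37 log2, Lrg1 -0.56 ± 0.30, Ch25h -0.57 ± 0.33 and Vcam1 -0.22 ± 0.10. Vcam1 alone then had an unadjusted p under 0.05 (edgeR, 0.0406). The fitted sign was negative for all 7 genes in each of the 37 alternatives. Most of these kept 18 months male replicate 2, so the constant sign is a description and no test. For Ackr1 the adjusted p-values ran from 0.208 (DESeq2, all 30 libraries) to 0.813 (edgeR, without both libraries).

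Within ages the sexes mostly overlapped. All 3 female libraries lay below all 3 male ones for Selp at 2 months, Icam1 at 6 months, Vcam1 at 18 months and Lrg1 at 24 months. At 24 months Lrg1 averaged 16.7 ± 1.07 CPM in females and 66.6 ± 68.7 CPM in males (SD, n = 3 each). At 18 months Vcam1 averaged 100 ± 26.0 CPM in females and 222 ± 129 CPM in males. The female mean was the higher for Vcam1 and Icam1 at 2 months, for Ackr1, Lrg1 and Ch25h at 6 months, for Sele, Lrg1 and Icam1 at 12 months and for Selp at 24 months. For Ackr1 at 6 months it was 5.16 ± 2.89 CPM in females and 3.28 ± 0.43 CPM in males.

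The difference between the sexes in slope passed for no member and for no gene of the 16844 (0%). Over all libraries the female slope was the lower for all 7, as for 48.3% of all genes. For 4 of the 7 that direction was lost without the high male libraries. Without 18 months male replicate 2 the female slope minus the male slope was 1.26 ± 1.64 log2 for Selp. Without 24 months male replicate 2 as well it was above 0 for 4 of the 7, at 1.81 ± 1.85 log2 for Selp, 0.58 ± 2.65 for Sele, 0.34 ± 0.89 for Lrg1 and 0.12 ± 0.30 for Icam1. For Vcam1 it was -0.97 ± 0.39 log2 over all libraries (edgeR adjusted p = 0.876) and for Ch25h -2.32 ± 1.04 log2 (adjusted p = 0.876). These 2 had an unadjusted p under 0.05, as had 5.44% of all genes, and without both high male libraries the differences were -0.42 ± 0.29 and -0.75 ± 0.91 log2.

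How the genes varied among libraries of the same age and sex was examined after the mean of each of the 10 groups was removed. Over all 30 libraries the 21 pairs had Pearson's r between 0.19 and 0.88, with a median of 0.63, and 7 pairs passed by both r and Spearman's rho (permutation within groups, 100000 draws, two-sided, adjusted over the 21 pairs). The closest pair was Ackr1 and Lrg1, with r = 0.88 (permutation p = 0.00074, adjusted 0.014) and rho = 0.86 (p = 3e-05, adjusted 0.00063). Without the 2 libraries farthest from the Ackr1 median r was 0.82. Lrg1 and Ch25h had r = 0.78 and Ackr1 and Ch25h r = 0.76. These r values rest in part on the library that the choice of genes named, so they were repeated without it.

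Without 18 months male replicate 2 the median r was 0.42, 19 of 21 pairs were positive and 1 pair passed by both measures. That pair was again Ackr1 and Lrg1, with r = 0.84 (adjusted permutation p = 0.0479) and rho = 0.85 (adjusted p = 0.00063). Without 24 months male replicate 2 as well the median r was 0.30, and Ackr1 and Lrg1 kept r = 0.79 and rho = 0.83, with adjusted permutation p-values of 0.0767 and 0.00819. In that set the 1 pair to pass by both measures was Selp and Icam1, which ran in opposite directions (r = -0.55, adjusted permutation p = 0.0439, and rho = -0.60, adjusted p = 0.0226). The neighbouring selectin genes did not pass as a pair. Selp and Sele had r = 0.44 and rho = 0.005 over all libraries (adjusted permutation p = 0.404 and 0.986), and r = -0.05 without 18 months male replicate 2. Sele had at most 3 reads in 10 libraries and Selp in 6, so a link between them could be missed.

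**Figure D4:**
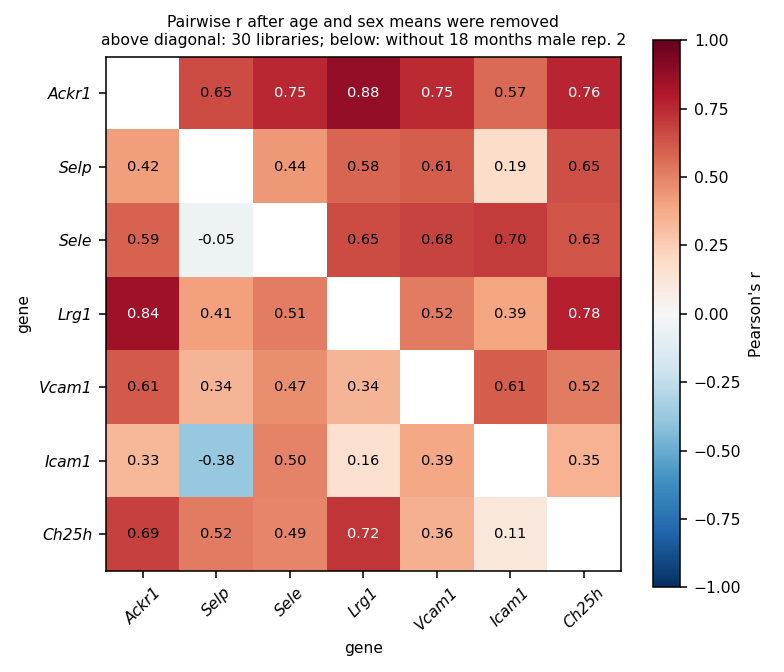
Pearson's r of log2(CPM + 0.5) between each pair of the 7 genes, named on both axes, after the mean of each age and sex group was removed. Cells above the diagonal use all 30 libraries and cells below leave out 18 months male replicate 2; Ackr1 with Lrg1 is the darkest cell on both sides, at 0.88 and 0.84.

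Over the 30 libraries with ages included, and as a description that shares libraries and depth, Ackr1 was the gene most like Lrg1 of all genes tested (Spearman's rho = 0.85). The genes outside the 7 with the highest rho to Ackr1 were Gm40466 (0.86), Mia3 (0.79) and Irak3 (0.78), and to Sele Ugcg (0.77), Arhgap5 (0.77) and Irak3 (0.77). For Lrg1 they were Sh3bp1 (0.78), Apc (0.77) and Mia3 (0.75), and for Selp Arhgap15, Mark1 and Rrad (0.75 to 0.76). For Ch25h they were Gm9889 (0.76), Espn and Syne3 (0.72 each), and for Icam1 Ipo5, Supt16 and D10Wsu102e (0.73 to 0.74). For Vcam1 they were Cspg4 (0.76), a marker of pericytes, Rnf152 (0.73) and Heyl (0.73). Of these 21 choices 14 were made again without 18 months male replicate 2, and 1 after age and sex means were removed.

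The other genes of the pathway were tested for their slope on age with edgeR's quasi-likelihood fit, with adjustment over all 16844 genes. Of 131 tested genes in 9 lists, 15 rose and 8 fell, with a median change of 0.05 log2, where 5.72% of all genes rose and 5.22% fell with a median of 0.03 log2. Without 18 months male replicate 2, 12 rose and 8 fell (4.97% and 4.37% of all genes), and with the share of reads outside genes as a covariate 6 rose and 4 fell (1.57% and 0.819% of all genes). The 6 were Vwf, Angpt2, Rab3d, Anxa2, Cx3cl1 and Cyp27a1 and the 4 were Slc38a5, Cpe, Abcg1 and Itga4, so the other calls were lost with that covariate. The changes behind the lost calls mostly became smaller with the covariate. They went from 1.30 to 1.12 log2 for Smad9, from 0.83 to 0.76 for Mcam and from 0.83 to 0.73 for Socs3. The fall was larger for Trio (0.73 to 0.46 log2), Il17ra (0.60 to 0.36) and Bmpr2 (0.50 to 0.29). For Mlph the change stayed at 0.50 log2, and for Il13ra1 it became larger, at 0.38 log2.

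Among 17 other endothelial adhesion molecules 1 rose and 1 fell, with a median change of -0.14 log2. Mcam, an adhesion molecule of the immunoglobulin family, rose by 0.83 ± 0.18 log2 (adjusted p = 0.00259), with 29.7 ± 5.49 CPM at 24 months and 18.7 ± 3.18 CPM at 2 months (SD, n = 6 each). F11r, the junctional adhesion molecule JAM-A, fell by 0.30 ± 0.07 log2 (adjusted p = 0.00408). Of 12 counter-receptor genes of leukocytes none rose and 1 fell, Itga4, the alpha chain of the integrin that binds Vcam1 (-1.56 ± 0.31 log2, adjusted p = 0.00112). It had 4.01 ± 0.96 CPM at 24 months and 14.6 ± 2.21 CPM at 2 months. Of 13 genes of the structure that docks leukocytes under Icam1 and Vcam1, Trio, a guanine nucleotide exchange factor, rose by 0.73 ± 0.21 log2 (adjusted p = 0.02) and none fell.

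Of 15 other genes that mark venules, 1 rose and 4 fell. Vwf, the platelet-binding protein stored with P-selectin, rose by 1.22 ± 0.17 log2 (adjusted p = 1.75e-05), with 312 ± 51.2 CPM at 24 months and 171 ± 69.7 CPM at 2 months (SD, n = 6 each). Slc38a5, a glutamine transporter, fell by 1.20 ± 0.19 log2 (adjusted p = 5.85e-05), with 317 ± 72.5 CPM at 24 months and 813 ± 130 CPM at 2 months. Cpe, carboxypeptidase E, fell by 1.24 ± 0.20 log2 (adjusted p = 0.000137), Tmsb10, an actin-binding thymosin, by 0.73 ± 0.16 (0.00357) and Prcp, a lysosomal carboxypeptidase, by 0.58 ± 0.15 (0.0135). The venular list therefore held changes in both directions, with a median of -0.02 log2. Of 14 genes of Weibel-Palade cargo and exocytosis 6 rose and none fell, with a median of 0.32 log2. Beside Vwf these were Angpt2, a Tie2 ligand stored in the same bodies (0.73 ± 0.14 log2, adjusted p = 0.00101), the secretory GTPases Rab27a and Rab3d, the Rab27 effector Mlph, and Anxa2. The changes of the last 4 ran from 0.33 ± 0.11 log2 for Anxa2 (adjusted p = 0.0435) to 0.62 ± 0.20 log2 for Rab27a (adjusted p = 0.0433), and 4 of the 14 rose without 18 months male replicate 2.

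Of 17 receptors for inflammatory cytokines 2 rose and 1 fell. Il17ra, the interleukin-17 receptor, rose by 0.60 ± 0.18 log2 (adjusted p = 0.0291) and Il13ra1, a chain of the interleukin-13 receptor, by 0.33 ± 0.11 log2 (adjusted p = 0.0475, and 0.0685 without 18 months male replicate 2), while Ifngr2, a chain of the interferon-gamma receptor, fell by 0.37 ± 0.10 log2 (adjusted p = 0.0169). In this list 6 of 17 genes had their highest level in 18 months male replicate 2, set beside 2.18% of all genes. They were Tnfrsf1a, Tnfrsf1b, Il1r1, Il6ra, Osmr and Il17ra. The other pathway lists had lower counts. These were 3 of 15 other venular genes, Il1r1 again among them, 2 of 12 leukocyte counter-receptors and 2 of 15 oxysterol genes. It was 1 each for 17 other adhesion molecules, 15 chemokine genes and 15 TGF-beta genes. None of the 14 Weibel-Palade or 13 docking genes was highest there. The choice of genes named this library, so these counts are a description and no test. Of 15 chemokines and atypical chemokine receptors, Cx3cl1, the membrane-bound chemokine fractalkine, rose by 0.40 ± 0.12 log2 (adjusted p = 0.0275) and none fell.

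Around Lrg1, 3 of 15 genes of TGF-beta signalling rose and none fell. Smad9, a BMP-responsive Smad, rose by 1.30 ± 0.30 log2 (adjusted p = 0.00417), with 3.95 ± 0.87 CPM at 24 months and 1.33 ± 0.24 CPM at 2 months (SD, n = 6 each). Bmpr2, a BMP receptor, rose by 0.50 ± 0.12 log2 (adjusted p = 0.00606) and Socs3, an inhibitor of cytokine signalling through STAT3, by 0.83 ± 0.23 log2 (adjusted p = 0.0155). Around Ch25h, 1 of 15 genes of oxysterol synthesis and sensing rose and 1 fell. Cyp27a1, the sterol 27-hydroxylase, rose by 1.70 ± 0.31 log2 (adjusted p = 0.000514), with 11.7 ± 3.45 CPM at 24 months and 3.75 ± 2.06 CPM at 2 months. Abcg1, a cholesterol exporter and target of the oxysterol-sensing LXR factors, fell by 0.80 ± 0.21 log2 (adjusted p = 0.0117), with 11.2 ± 1.75 CPM at 24 months and 23.2 ± 3.22 CPM at 2 months.

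**Figure D5:**
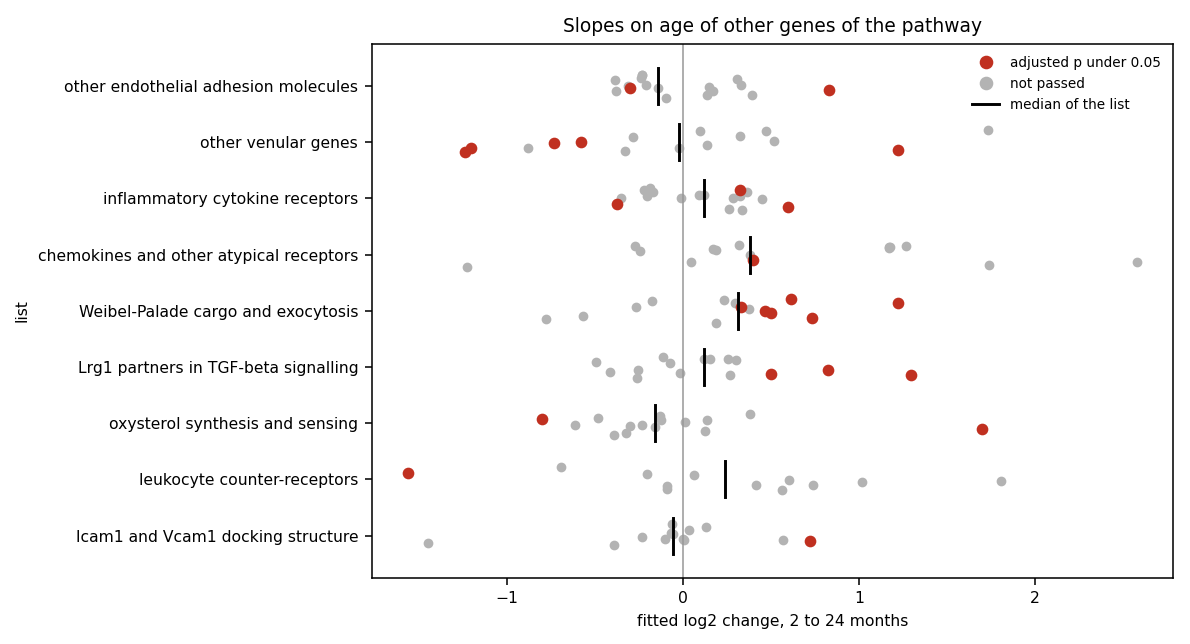
Fitted log2 change from 2 to 24 months, horizontal, of each tested gene of 9 pathway lists, down the page. Red points had an adjusted p under 0.05, grey points did not, and the black stroke is the median of a list; the Weibel-Palade list holds 6 red points, all to the right of 0.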

How the data were processed

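RNA was read from brain endothelial cells in 30 libraries. Per the labels' protocols, cDNA came from the SMART-Seq v4 kit and libraries from Nextera XT, which keep no strand and add no molecular identifiers, so that PCR copies are counted. The submitters' processing notes name the aligner STAR 2.5.2b, HTSeq, FastQC 0.11.4 and MultiQC, with GRCm38 and mm10 as builds. The authors deposited raw read counts per gene. Reads of either strand were combined, because 49.7 to 50.0% of stranded reads fell on the forward one. The 4 lines that name no gene, 21.5 to 29.2% of reads, were left out. Of 48795 identifiers 48349 matched the gene name table and 48435 the GENCODE M21 annotation of GRCm38, which gave coordinates and exon lengths; the authors' annotation release is not given in these sources.

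Counts were fitted in R 4.3.3 with edgeR 4.0.16 (TMM, filterByExpr by age with a minimum count of 10 and a total of 15, robust quasi-likelihood), which kept at least 99.9% of counts. Models were a slope on age with sex as a covariate, sex with age as a factor, and sex by age, with Benjamini-Hochberg adjustment over all 16844 genes at 0.05. The fit was tested on simulated data. Correlations used log2(CPM + 0.5) in scipy 1.17.1. Promoters came from RefSeq (GRCm38.p6). Alternatives were other scalings, no filter, DESeq2 1.42.0, omitted libraries or ages, the sexes apart, log age, a covariate, other pseudocounts and a longer promoter window. The 7 genes, the pathway and marker lists and the tests were chosen with earlier results of these data known. Genes were named when they were among the 7, passed the slope test in a pathway list, were the 3 most like each of the 7 by Spearman's rho, were the 12 that led in 18 months male replicate 2, or were abundant markers; Cldn5, Gp1ba and the chosen marker examples were picked after their values were seen. Replicates were numbered in the order of deposit. The design calls the libraries biological replicates, and floors of 3 reads cover counting error only, while SDs and SEs include the spread between libraries. Where pools were used, p-values measure the spread between pools.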

Additional observations from a re-analysis of the deposited data

Results flagged for a closer look

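In each of the 35 sets of 6 libraries (7 genes at 5 ages) the extreme library was compared with the range of its set by Dixon's criterion at 0.625, which chance passes in about 1 set in 20 where sets are independent and normally spread. These sets share libraries and are skewed, and the choice of genes named 18 months male replicate 2, so its values are a description. It was passed in 17 sets, by 6 libraries. 18 months male replicate 2 stood apart for all 7 genes at its age, with 261 CPM of Ackr1 (next 26.1), 18.7 of Selp (next 2.57), 42.1 of Sele (next 3.01), 225 of Lrg1 (next 59.5), 370 of Vcam1 (next 159), 223 of Icam1 (next 119) and 50.9 of Ch25h (next 19.7). 24 months male replicate 2 stood apart for 5 genes, with 77.2 CPM of Ackr1 (next 19.9), 5.64 of Sele (next 2.18), 145 of Lrg1 (next 36.2), 290 of Vcam1 (next 172) and 56.2 of Ch25h (next 14.96). 2 months male replicate 3 was high in Ackr1 at 18.5 CPM (next 2.47) and in Lrg1 at 48.8 CPM (next 12.6), the pair that also varied together within ages. Sele alone stood apart in 6 months male replicate 2, at 1.69 CPM (next 0.41), and in 12 months female replicate 2, at 4.50 CPM (next 1.63). Icam1 was low in 2 months male replicate 2, at 79.1 CPM (next 103).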

How the results depend on the processing

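The changes over 22 months of the 7 genes were positive in each alternative run, and no sign was reversed. Leaving out each library in turn gave 2.15 to 3.52 log2 for Ackr1, 2.40 to 3.41 for Selp, 3.21 to 5.19 for Sele, 1.73 to 2.65 for Lrg1, 0.50 to 0.71 for Vcam1, 0.50 to 0.62 for Icam1 and 2.21 to 2.75 for Ch25h. It gave 4 to 7 of the 7 genes under the threshold, 10 to 17 pathway genes rising and 8 to 12 falling. By leaving out an age, the Ackr1 change was 4.23 log2 without the 24-month libraries, and the Sele change 3.37 without the 2-month, 3.20 without the 18-month and 7.30 without the 24-month libraries. With one sex alone, the change among females was 1.42 log2 for Ackr1, 3.17 for Sele, 0.15 for Vcam1 and 1.35 for Ch25h, and among males 4.28 for Ackr1, 1.12 for Vcam1 and 3.67 for Ch25h. The following were added after seeing the data: males without 18 months male replicate 2 (Selp 1.70 and Sele 3.23 log2), all libraries without both high male libraries (Ackr1 1.47 and Sele 2.81 log2), and the sum of both strand columns, which moved no value beyond the spread between replicates.

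Of the 7 genes, 6 were under the threshold in the fit reported. It was 2 with the covariate for reads outside genes, 1 without the 2-month, 2 without the 6-month and 3 without the 18-month libraries, 0 among females, 1 among males, 1 among males without 18 months male replicate 2 and 1 without both libraries. Pathway genes rising, 15 in the fit reported, were 6 with the covariate, 8 without the 18-month libraries, 3 among females, 3 among males and 1 among males without that library. Pathway genes falling, 8, were 15 with DESeq2, 4 with the covariate, 4 without the 2-month, 16 without the 6-month and 13 without the 24-month libraries, 2 among females, 2 among males and 2 among males without that library. Pairs that passed, 7, were 1 without 18 months male replicate 2, 1 without both libraries and 17 with age means alone removed. Fits on fewer libraries also have less power, and the cause of the other moves was not tested. No gene of the 7 passed for sex or for sex by age in any alternative. No paired analysis was possible because the replicate numbers only follow the order of deposit and the labels pair no libraries across groups. Depth limits Sele and Selp, which had no read in 7 and 4 libraries.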
